A study of Mus musculus with 8 samples.

Results

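The Hox genes are the homeobox transcription factor genes of the HoxA, HoxB, HoxC and HoxD clusters. They were taken as every gene whose symbol in the platform annotation is Hoxa, Hoxb, Hoxc or Hoxd followed by a number, which gave 34 of the 17097 genes with a probe set of their own. The HoxA cluster gave 9 of them, HoxB 10, HoxC 6 and HoxD 9. Hox genes without a probe set of 1 gene were not analysed here. Their RNA was measured on 8 Affymetrix arrays of tumour cells that were sorted for surface α6-integrin and CD34 and that the labels call cancer stem cells. The cells came from skin squamous cell carcinoma (SCC), a cancer of keratinocytes, at a well differentiated stage (WD-SCC) and a poorly differentiated stage (PD-SCC, written PD/S-SCC in the sample titles), with 4 arrays per stage.

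All 8 samples share one background. The strain is given as FVB/C57/Bl6, and the tumours arose in K14-HPV16 mice, in which a keratin promoter of basal keratinocytes drives papillomavirus genes. They arose either spontaneously or after the carcinogen DMBA and the promoter TPA, and the labels do not say which lineage had which origin. They were grafted orthotopically into nude mice and passed on serially, and blood and endothelial cells were removed from the suspensions ahead of the sort. The 3 tumour lineages are OT7, with 2 arrays per stage, and OT14 and OT15, with 1 array per stage each. Each lineage is 1 tumour, so the stages are compared within 3 tumours. Animal ages, passage numbers and any pooling of tumours are not stated in the labels. The labels call the arrays biological replicates without naming separate tumours or hosts, so every p-value here reflects spread among these arrays, some of which may be technical. One OT7 WD-SCC array has no number in the labels and is called OT7 WD-SCC array 1 here.

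Hox proteins bind DNA through the homeodomain and give cells their position along the body axes in the embryo. The genes lie side by side in the order in which they are used along the axis, so that low-numbered (anterior) and high-numbered (posterior) genes stand at opposite ends of a cluster, and genes with the same number in different clusters are paralogs. Adult skin cells keep a Hox pattern that differs between body sites, and the clusters are held silent by Polycomb proteins and kept active by trithorax proteins.

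Among the 34 Hox genes, Hoxb4 had the largest stage difference past the threshold, Hoxa9 the largest difference within 1 lineage and Hoxd9 the largest difference over all arrays. Their promoters are shown for that reason, as the 250 bases before the start of transcription, 5′ to 3′ on the strand of the gene, with every CG pair (CpG) in capitals. They come from a RefSeq promoter table of build GRCm38.p6, which held 21 of the 34 members (23 promoters in all). Hoxb4 is at chr11:96318017-96318266 on the plus strand, Hoxa9 at chr6:52227371-52227620 on the minus strand and Hoxd9 at chr2:74697513-74697762 on the plus strand.
Hoxb4: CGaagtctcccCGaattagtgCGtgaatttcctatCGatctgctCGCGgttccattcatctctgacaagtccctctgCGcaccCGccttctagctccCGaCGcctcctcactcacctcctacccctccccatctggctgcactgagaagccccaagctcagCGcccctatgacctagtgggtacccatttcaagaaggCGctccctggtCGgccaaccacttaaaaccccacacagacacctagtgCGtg
Hoxa9: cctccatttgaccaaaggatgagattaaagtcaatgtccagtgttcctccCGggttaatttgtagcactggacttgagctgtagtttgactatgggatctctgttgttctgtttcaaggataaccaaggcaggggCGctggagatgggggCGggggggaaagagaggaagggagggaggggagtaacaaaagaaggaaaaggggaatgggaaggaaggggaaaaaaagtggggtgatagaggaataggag
Hoxd9: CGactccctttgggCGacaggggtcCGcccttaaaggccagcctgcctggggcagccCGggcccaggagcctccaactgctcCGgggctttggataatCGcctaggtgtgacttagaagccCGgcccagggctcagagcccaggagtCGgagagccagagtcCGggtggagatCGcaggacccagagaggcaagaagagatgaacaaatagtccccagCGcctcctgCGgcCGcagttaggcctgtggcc

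The Hoxb4 window held 14 CpG, the Hoxa9 window 3 and the Hoxd9 window 13. The median was 12 CpG over the 23 Hox promoters and 6 over the 32536 promoters of the table, and the median GC content was 58.0% and 52.4%. Searched on both strands, the CCAAT box (CCAAT) was found in 56.5% of Hox promoters and 33.8% of all promoters, and the E-box CACGTG in 17.4% and 6.0%. The Hox and Pbx motif TGATTNAT stood in 8.7% of Hox promoters against 2.8% of all, and the Hox core TAATTA in 8.7% against 4.8%. The GC box GGGCGG stood in 39.1% against 33.0%, the TATA box TATAAA in 17.4% against 12.3% and the Meis motif TGACAG in 8.7% against 15.8%. The Hoxa9 window held a GC box 103 bases before the start and the Hoxd9 window held one on the opposite strand at 226 bases. None of these 7 strings lay in the Hoxb4 window. A match is a string of letters, and these values describe the sequences only.

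Values are the deposited log2 values, on which a difference of 1 is a doubling. Probe sets differ in how brightly they report their RNA, so levels are compared between arrays and never between genes. A gene counts as above the controls on an array where its value passes the highest of 15 bacterial control probe sets to which no RNA was added. By that measure 6 Hox genes were above the controls on all 8 arrays: Hoxa3, Hoxa7, Hoxb5, Hoxb8, Hoxb13 and Hoxc9. That is 17.6% of the members, where 38.4% of all genes were above the controls on all 8 arrays. Another 13 passed on some arrays, and 15 (44.1%) passed on none, against 28.7% of all genes. Of the 9 HoxD genes only Hoxd9 was above the controls on any array, whereas 9 of the 10 HoxB genes were above them on at least 1 array, all except Hoxb1. With a level of 1 log2 unit over the highest control, the count on all 8 arrays fell from 6 to 1 (Hoxa3), and against all 27 bacterial controls it was 2 (Hoxa3 and Hoxb13).

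The number of Hox genes above the controls was 10, 11, 10 and 7 on the WD-SCC arrays of OT7 (arrays 1 and 2), OT14 and OT15. On the PD-SCC arrays, in the same order, it was 13, 13, 19 and 11. The HoxB cluster gave 3 to 5 of these genes per WD-SCC array and 7 to 9 per PD-SCC array, without overlap between the stages. The controls themselves moved the other way. The highest control was 4.11 ± 0.22 (SD, n = 4) in WD-SCC and 3.69 ± 0.09 in PD-SCC, with an exact two-sided permutation p of 0.0286, the smallest that 4 arrays against 4 can give (also 0.0286 after adjustment over 4 array measures). Exchanging the stages only within lineages, which allows 24 arrangements, gave an exact permutation p of 0.0833, the smallest that test can give. The share of all genes above the controls was 45.2% to 58.2% per WD-SCC array and 55.5% to 63.7% per PD-SCC array. The level to pass was thus lower on the PD-SCC arrays, and its part in the Hox counts was not tested.

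**Figure D1:**
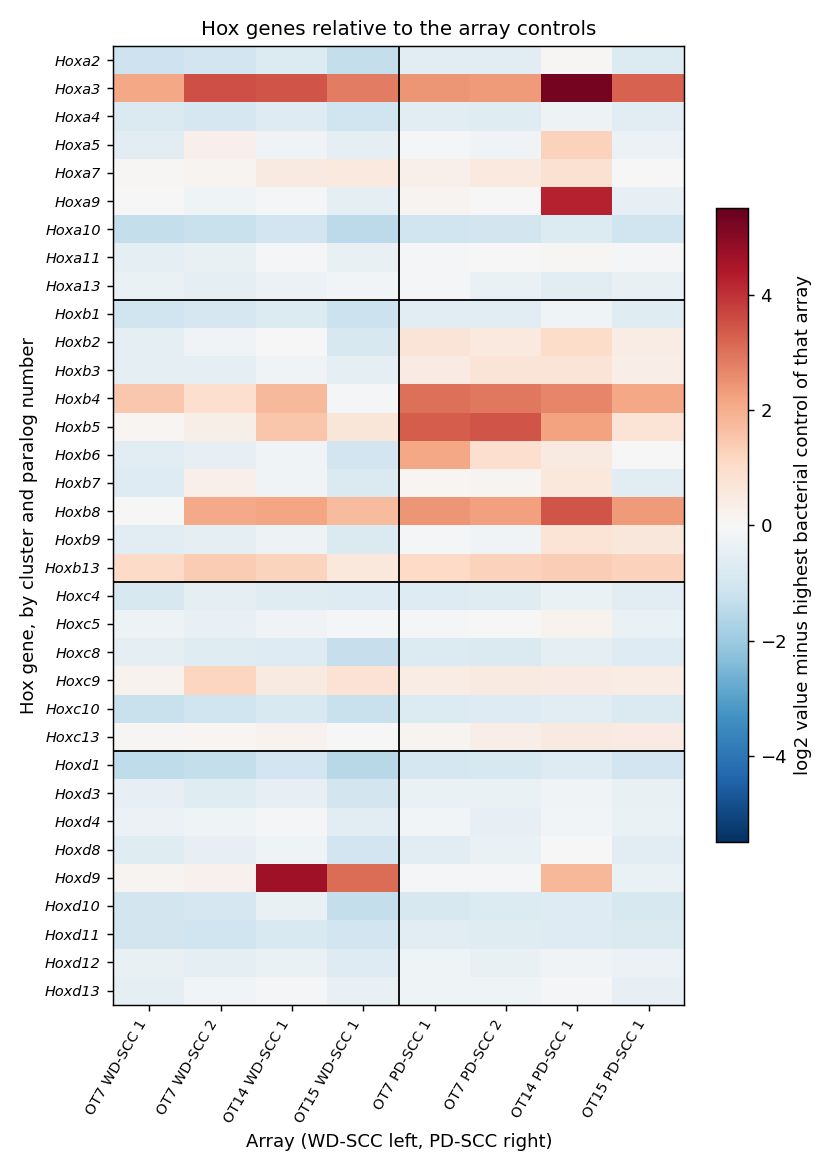
The log2 value of each of the 34 Hox genes minus the highest bacterial control of the same array, with genes in rows by cluster and arrays in columns (WD-SCC left of the line, PD-SCC right). Red is above the control and blue below; Hoxb4 and Hoxb5 turn deeper red in PD-SCC of OT7, Hoxd9 is red in WD-SCC of OT14 and OT15, and the OT14 PD-SCC array has the most red cells (19 genes).

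The stage comparison asks which Hox genes differ between WD-SCC and PD-SCC of the same lineages. Hoxb2, Hoxb3 and Hoxb4, which are neighbours at the anterior side of the HoxB cluster, were the members past the threshold (adjusted p under 0.05), and all of them rose in PD-SCC. No Hox gene fell past the threshold, and in sign alone 11 differences were above 0 and 23 below, where 42.2% of all genes were above 0 and 57.8% below. Of the 34 differences, 16 were above 0 after cyclic loess and 8 after scaling each array to its 75th percentile. These 3 are 8.82% of the members, where 12.6% of all genes passed the threshold, 7.78% higher and 4.81% lower. For rises alone the shares are 8.82% and 7.78%, close to each other, so the count is not a result particular to the Hox genes. The other 31 had adjusted p between 0.0744 and 0.976.

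Hoxb4, a factor known for its role in expanding blood stem cells, read 5.60, 5.04, 5.60 and 4.27 on the WD-SCC arrays of OT7 (arrays 1 and 2), OT14 and OT15. On the PD-SCC arrays it read 6.75, 6.52, 6.32 and 5.95. All PD-SCC values were above all WD-SCC values, and the lowest was OT15 WD-SCC, which lay under its own control of 4.37. The mean went from 5.13 ± 0.63 (SD, n = 4) to 6.38 ± 0.34. The fitted rise was 1.26 ± 0.21 (SE; 95% interval 0.75 to 1.76), with an adjusted p of 0.0189 from limma. Lineage OT7 differed by 1.32, OT14 by 0.71 and OT15 by 1.68. Because the OT15 WD-SCC value lay under its control, the fitted rise and the OT15 difference are not measured folds. A second Hoxb4 probe set read 4.76 to 5.24 in WD-SCC and 5.30 to 5.76 in PD-SCC. It rose by 0.72, with an adjusted p of 0.0372 in a separate limma fit over all probe sets with 1 gene symbol. Both probe sets of the gene thus moved the same way without overlap between the stages.

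Hoxb2, which patterns the hindbrain in the embryo, read 3.61, 3.95, 3.84 and 3.48 in WD-SCC and 4.43, 4.17, 4.61 and 4.20 in PD-SCC, with the arrays in the same order. The stages did not overlap. It was above the controls on 1 of 4 WD-SCC arrays (OT14) and on 4 of 4 PD-SCC arrays. Its mean went from 3.72 ± 0.22 to 4.35 ± 0.21 (SD, n = 4), a rise of 0.63 ± 0.13 (SE; 95% interval 0.32 to 0.95), with an adjusted p of 0.033 in limma. The difference was 0.52, 0.77 and 0.72 in OT7, OT14 and OT15. Because 3 of the 4 WD-SCC values lay under their controls (mean of the controls 4.11), the WD-SCC level is near background and the fitted difference is not a measured fold.

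Hoxb3, the HoxB paralog of Hoxa3 and Hoxd3, read 3.62, 3.61, 3.63 and 3.84 in WD-SCC, under the controls on every array. In PD-SCC it read 4.18, 4.35, 4.33 and 4.16, above the controls on every array. The fitted difference was 0.58 ± 0.11 (SE; 95% interval 0.32 to 0.84), with an adjusted p of 0.0251 in limma. Because no WD-SCC array was above the controls, the measured change is a bound, and Hoxb3 was at least 1.10-fold higher in PD-SCC. That bound sets the bright stage's mean of 4.26 against the WD-SCC controls, since each of them exceeded the gene's own value. Lineage OT7 differed by 0.65, OT14 by 0.70 and OT15 by 0.33. Its second probe set was under the controls on all 8 arrays (difference 0.12, adjusted p = 0.38 in the limma fit over all probe sets with 1 gene symbol). In the RefSeq gene table Hoxb4 lies within the span of Hoxb3, and the annotation used here does not say which transcripts a probe set reads.

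Each of the 3 calls was lost on leaving out some single arrays. With either OT7 PD-SCC array left out none of them passed the threshold, and with the others left out in turn 1 or 2 passed. Hoxb4 alone passed without OT7 WD-SCC array 1 or without either OT14 array, Hoxb3 alone without either OT15 array, and Hoxb2 and Hoxb4 without OT7 WD-SCC array 2. All 3 kept their sign under the 20 alternatives of the fit. With the OT7 arrays of a stage averaged, adjusted p was 0.0862 for Hoxb2, 0.132 for Hoxb3 and 0.0887 for Hoxb4, in a fit that called 2.35% of all genes. Scaled to the 75th percentile of each array, Hoxb4 alone was called (higher) together with Hoxd9 and Hoxd13 (lower).

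The other HoxB genes differed in which lineages moved. Hoxb5, a mid-cluster factor with roles in endothelial and blood stem cells, read 4.25 and 4.47 on the OT7 WD-SCC arrays and 7.05 and 7.08 on the OT7 PD-SCC arrays. In OT14 it read 5.33 and then 5.84, and in OT15 5.02 and then 4.57. OT7 PD-SCC therefore held the high values, and the stages overlapped. The difference was 2.71 in OT7 (adjusted p = 0.014), 0.51 in OT14 (adjusted p = 0.422) and -0.45 in OT15 (adjusted p = 0.374). Over the 3 lineages it was 1.37 ± 0.58 (SE; 95% interval -0.07 to 2.80), with an adjusted p of 0.172 in limma. The test of the difference between lineages gave a p of 0.000605, which became 0.181 after adjustment over all genes.

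Hoxb6, its neighbour, was under the controls on all 4 WD-SCC arrays, at 3.54, 3.66, 3.63 and 3.32. In PD-SCC it read 5.86, 4.53, 4.12 and 3.81, above the controls on all but OT15. All PD-SCC values were above all WD-SCC values, with OT7 PD-SCC array 1 the highest. The difference of 1.04 ± 0.37 (SE) had an adjusted p of 0.119 in limma, so it is not a call. The bound from the stage means, at least 1.38-fold, describes these arrays only. Without OT7 PD-SCC array 1 the difference was 0.67 and the bound at least 1.03-fold. Hoxb8, a factor that holds myeloid progenitors immature, was above the controls on all 8 arrays. It read 4.17, 6.22, 6.00 and 6.10 in WD-SCC and 6.16, 5.87, 7.07 and 6.14 in PD-SCC. Only OT7 WD-SCC array 1 stood low, and the difference of 0.69 ± 0.47 (SE) had an adjusted p of 0.352. It was 0.25 without that array and 1.07 without OT7 WD-SCC array 2.

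Hoxb9 read between 3.54 and 3.62 in WD-SCC, under the controls on every array. In PD-SCC it read 3.63 and 3.44 in OT7, 4.38 in OT14 and 4.43 in OT15, and only the last pair was above the controls. The difference was 0.40 ± 0.20 (SE; adjusted p = 0.236), and 0.25 without either OT14 array or either OT15 array. Hoxb13, the posterior end of the cluster and a gene of prostate development, was above the controls on all 8 arrays, at 5.20, 5.51, 5.03 and 4.97 in WD-SCC and 4.81, 4.89, 4.97 and 5.07 in PD-SCC. Its difference was -0.24 ± 0.15 (SE; 95% interval -0.62 to 0.14; adjusted p = 0.322), and -0.13 without OT7 WD-SCC array 2. Hoxb7 had a difference of -0.01 (adjusted p = 0.976) and Hoxb1 one of 0.04, under the controls on all arrays. Counted over the cluster, 8 of 10 HoxB differences were above 0, with a median of 0.61, where the median of all genes was -0.06. The count was 9 of 10 after cyclic loess, under which Hoxb2, Hoxb3 and Hoxb4 stayed called (10.1% of all genes were), and 7 of 10 after scaling to the 75th percentile, which moved the median of all genes to -0.26.

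**Figure D2:**
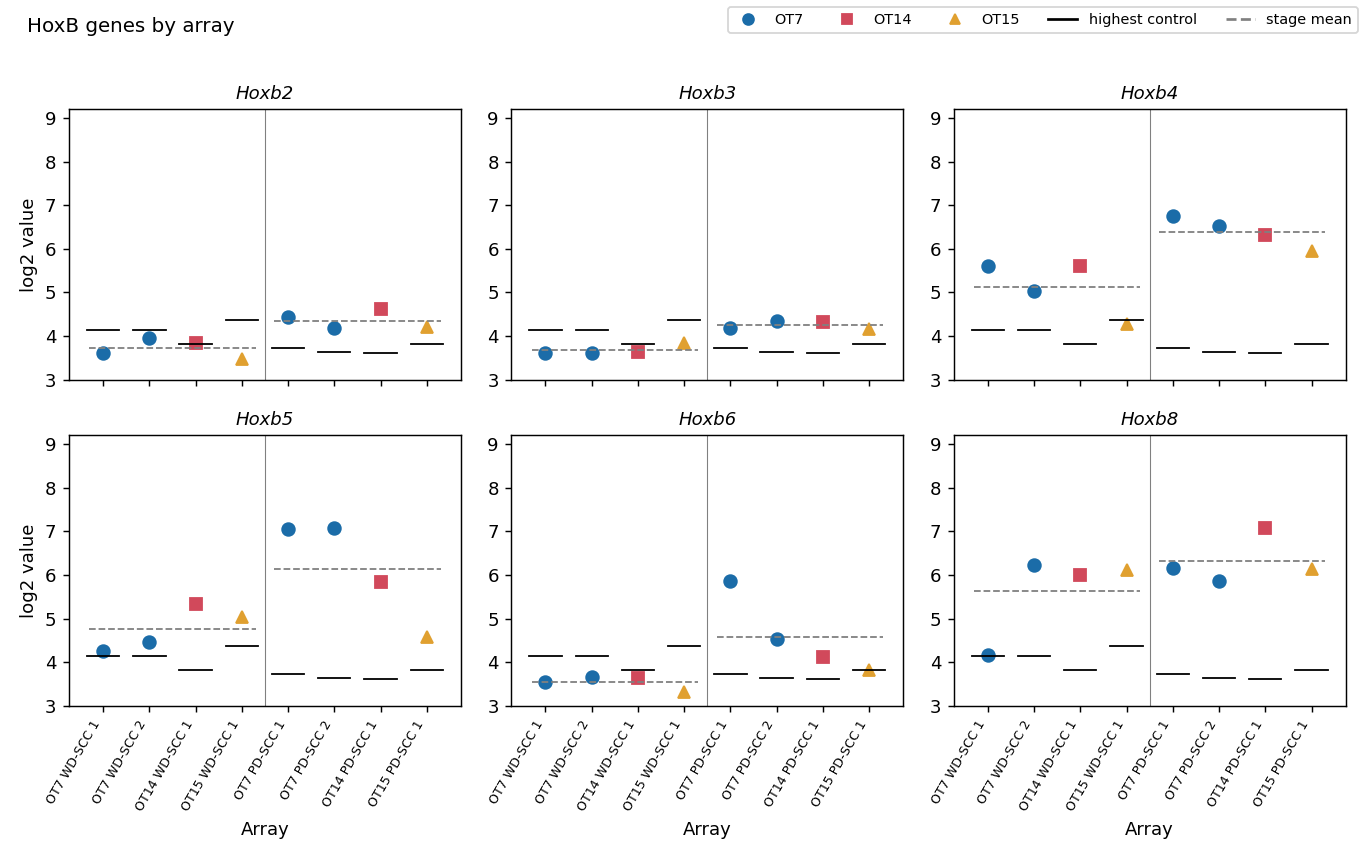
Log2 values of 6 HoxB genes on each of the 8 arrays (points, coloured by lineage), with the highest bacterial control of that array (short black line) and the mean of each stage (dashed line). Hoxb2, Hoxb3, Hoxb4 and Hoxb6 have no overlap between the stages, while Hoxb5 is highest on the OT7 PD-SCC arrays (7.05 and 7.08) and Hoxb8 is low on OT7 WD-SCC array 1 (4.17).

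Hoxd9, a posterior factor of limb and trunk, had the largest stage difference of all members and did not pass the threshold. It read 4.27 and 4.36 on the OT7 WD-SCC arrays, 8.49 in OT14 and 7.44 in OT15. In PD-SCC it read 3.66 and 3.53 in OT7, 5.46 in OT14 and 3.46 in OT15. The value was lower in PD-SCC in each lineage, but the OT14 PD-SCC array lay above the OT7 WD-SCC arrays, so the stages overlapped. It was above the controls on 4 of 4 WD-SCC arrays and, in PD-SCC, in OT14 alone. The PD-SCC values of OT7 and OT15 thus lay under their controls, so the fitted differences that use them are not measured folds. The mean went from 6.14 ± 2.15 to 4.03 ± 0.96 (SD, n = 4), a difference of -2.11 ± 0.60 (SE; 95% interval -3.60 to -0.63) with an adjusted p of 0.0744 in limma. It passed the threshold under 3 of 20 alternatives, with adjusted p between 0.03 and 0.201 over all of them. Within lineages the difference was -0.72 in OT7 (adjusted p = 0.061), -3.03 in OT14 (adjusted p = 0.0361) and -3.98 in OT15 (adjusted p = 0.035). OT14 and OT15 have 1 array per stage, so their p-values take the spread from the OT7 pairs alone. At that test 9.07% of all genes passed in OT7, 0.842% in OT14 and 1.33% in OT15.

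The remaining 8 HoxD genes were under the controls on all arrays, and all 9 differences of the cluster were below 0 (8 after cyclic loess), with a median of -0.23. HoxC had 6 of 6 differences below 0 (5 after cyclic loess), with a median of -0.28. Probe sets under the controls had differences below 0 in general: 14 of the 15 Hox genes under the controls on all arrays had one (median -0.20), and the median of all 4913 such genes was -0.10, against 0.04 for the 12184 others. A probe set for nonspecific binding with 25 G or C bases went from 8.39 ± 0.26 in WD-SCC to 6.94 ± 0.19 in PD-SCC (SD, n = 4; exact two-sided permutation p = 0.0286, and 0.0833 within lineages). The controls thus moved the same way as these low values, and their part in the direction was not tested.

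Hoxc9, a factor of the thoracic region, was above the controls on all 8 arrays. It read 4.31, 5.31, 4.32 and 5.15 in WD-SCC and 4.13, 4.12, 4.05 and 4.20 in PD-SCC. All PD-SCC values lay under all WD-SCC values, and OT7 WD-SCC array 2 and the OT15 WD-SCC array were the high ones. The difference was -0.65 ± 0.24 (SE; 95% interval -1.25 to -0.04), with an adjusted p of 0.136 in limma. Hoxc13, which controls hair keratins in the follicle, read 4.22, 4.22, 3.997 and 4.36 in WD-SCC and 3.85, 3.99, 4.09 and 4.25 in PD-SCC, close to the controls throughout. Its difference of -0.15 ± 0.11 (SE) had an adjusted p of 0.363. Counted without overlap between the stages, 4 Hox genes had PD-SCC above WD-SCC (11.8%, where all genes had 10.8%) and 5 had it below (14.7%, where all genes had 13.3%).

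In the HoxA cluster the OT14 PD-SCC array stood apart. Hoxa9, a posterior factor known from leukaemia, read 4.16, 3.89, 3.70 and 3.87 in WD-SCC and 3.88, 3.59, 7.83 and 3.37 in PD-SCC. The value of 7.83 was that of OT14, and no other array passed 4.16. The difference within OT14 was 4.13, against -0.29 in OT7 and -0.49 in OT15. OT14 has 1 array per stage, so its adjusted p of 0.0362 in limma takes the spread from the OT7 pairs alone, and 0.842% of all genes passed there. Over the 3 lineages it was 0.77 ± 0.82 (SE), with an adjusted p of 0.544 in limma, and it was -0.36 without either OT14 array. The test of the difference between lineages gave a p of 0.000426, or 0.181 after adjustment.

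Hoxa3, an anterior gene of the pharyngeal arches that is also studied in skin wounds, was above the controls on all 8 arrays. It read 6.24, 7.69, 7.26 and 7.19 in WD-SCC and 6.15, 5.96, 8.89 and 7.08 in PD-SCC. The OT14 PD-SCC array was again the highest and the OT7 PD-SCC arrays were the lowest. The lineages differed in sign, with -0.91 for OT7, 1.63 for OT14 and -0.12 for OT15, and the difference was -0.08 ± 0.53 (SE; 95% interval -1.39 to 1.24) over the lineages. It was 0.38 without OT7 WD-SCC array 2 and -0.65 without either OT14 array. Its other 3 probe sets read between 3.19 and 3.88, so the values rest on 1 of 4 probe sets. In the RefSeq gene table the span of Hoxa3 holds Hoxa4, Hoxa5 and Hoxa6.

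Hoxa5, a factor known as an activator of Trp53, read 3.50, 4.41, 3.62 and 3.83 in WD-SCC and 3.63, 3.43, 4.88 and 3.50 in PD-SCC, above the controls on OT7 WD-SCC array 2 and in OT14 PD-SCC. Hoxa2 read 3.67 in OT14 PD-SCC and 3.08 or less elsewhere. Hoxa7, a gene of skin differentiation, read 4.22, 4.29, 4.30 and 4.91 in WD-SCC and 4.02, 4.18, 4.46 and 3.83 in PD-SCC, all above the controls. OT7 differed by -0.15, OT14 by 0.16 and OT15 by -1.08. Over the lineages it was -0.31 ± 0.21 (SE; adjusted p = 0.356), and -0.05 without either OT15 array. Hoxa11 passed the controls on 1 array, and Hoxa4, Hoxa10 and Hoxa13 on none. Over the cluster, 3 of 9 differences were above 0 (5 after cyclic loess, 1 after scaling to the 75th percentile). None passed the threshold.

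**Figure D3:**
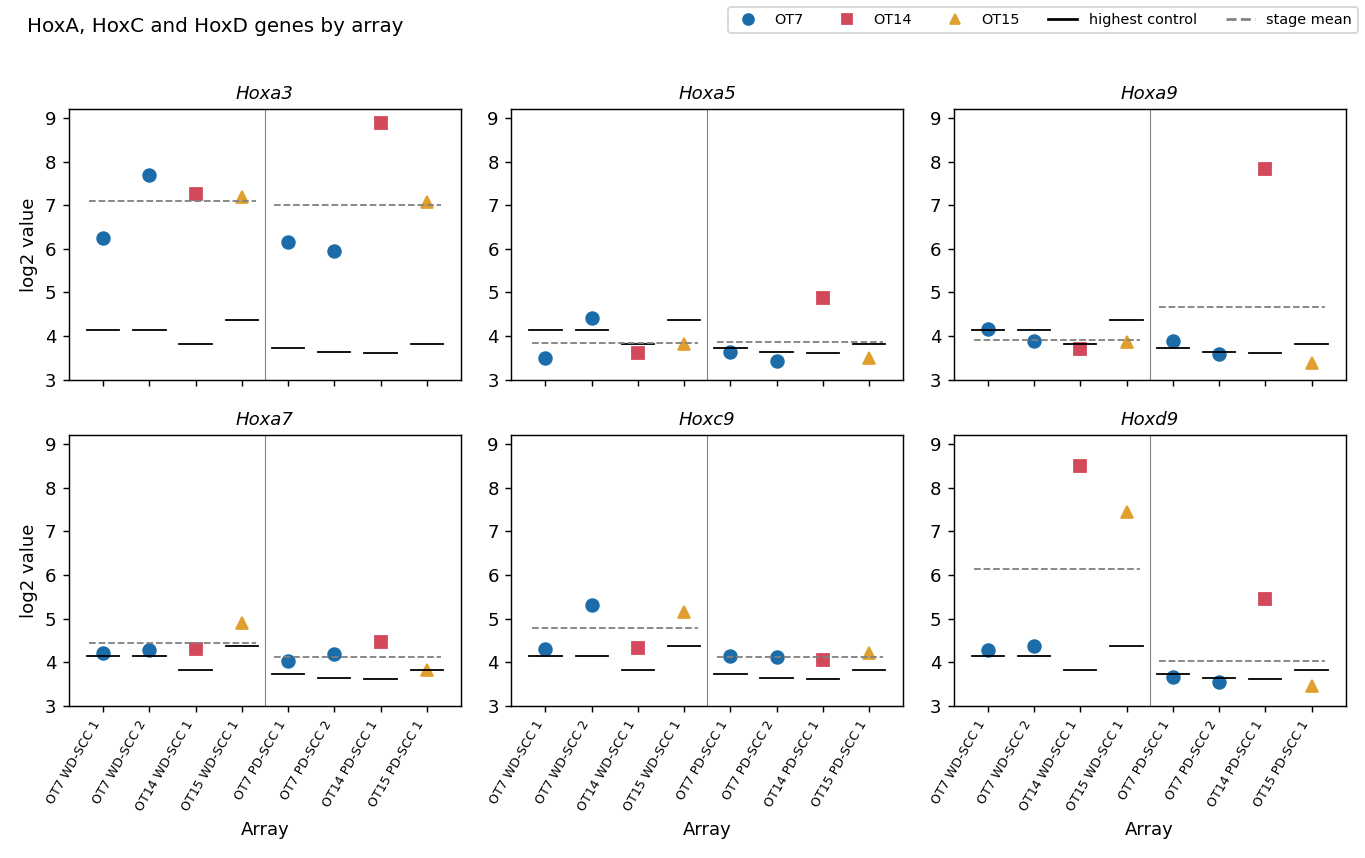
Log2 values of 4 HoxA genes, Hoxc9 and Hoxd9 on each of the 8 arrays (points, coloured by lineage), with the highest bacterial control of that array (short black line) and the mean of each stage (dashed line). Hoxa3 and Hoxa9 are highest on the OT14 PD-SCC array (8.89 and 7.83), and Hoxd9 is highest on the OT14 and OT15 WD-SCC arrays (8.49 and 7.44).

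The lineages were compared next, to ask whether Hox levels or their stage differences depend on the tumour. Beside stage, no Hox gene differed between lineages past the threshold in limma (smallest adjusted p 0.6), and 0% of all genes did. At an unadjusted p under 0.05, 2 members passed (Hoxb4, with an adjusted p of 0.641 in limma, and Hoxd9, with 0.6), which is 5.88% of the members where 7.32% of all genes passed. The test of whether the stage difference itself varied between lineages called no Hox gene and 0% of all genes (smallest adjusted p among Hox genes 0.181). At an unadjusted p under 0.05 it took 6 members, or 17.6%, against 11.9% of all genes. They were Hoxa7, Hoxa9, Hoxb5, Hoxb9, Hoxc5 and Hoxd9. In sign, 16 of the 34 members moved the same way in all 3 lineages, where 51.3% of all genes did. With a trended and robust prior, 14 genes passed this test and none was a Hox gene.

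**Figure D4:**
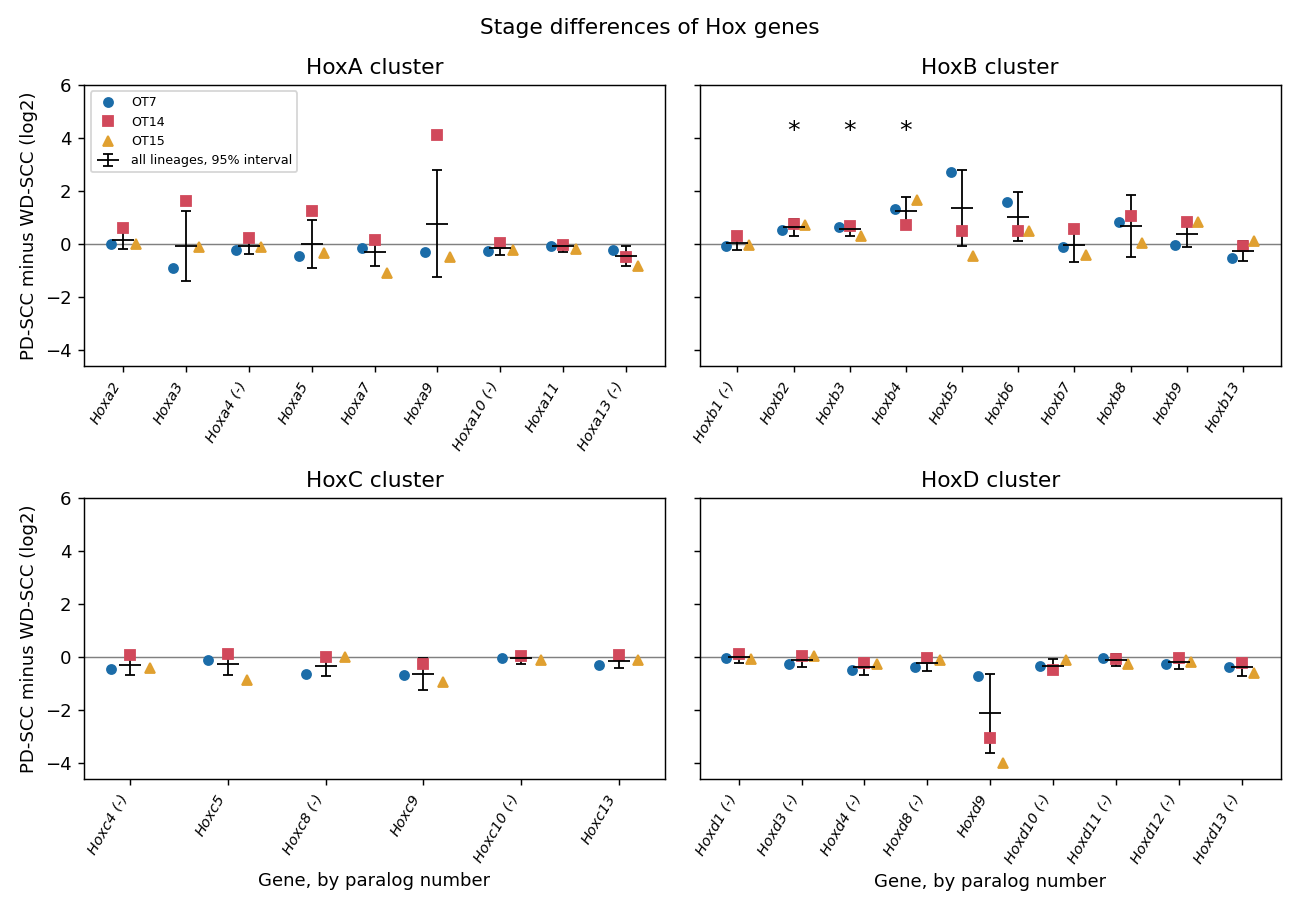
PD-SCC minus WD-SCC in log2 units for the 34 Hox genes by cluster, within each lineage (coloured points) and over the 3 lineages (black line with its 95% interval from limma). Stars mark the 3 genes past the threshold and a minus sign in brackets marks genes under the controls on every array; Hoxb5, Hoxa9 and Hoxd9 have lineages far apart (2.71 against -0.45 for Hoxb5).

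The markers of the sort and of other cells were read beside these results. Itga6, the α6-integrin, read between 5.32 and 8.15 and was above the controls on all arrays. Cd34 read between 6.72 and 8.72 on all arrays except OT15 WD-SCC, where it read 3.58, under its control, so that library goes against the sorted marker. Without that array, or without OT15, Hoxb3 was the only Hox call. Of 12 keratinocyte markers (median -3.30) 7 fell (58.3%, where 4.81% of all genes fell) and none rose (7.78% of all genes rose). Their mean level went from 6.86 to 7.81 per WD-SCC array to 4.37 to 4.70 per PD-SCC array. Krt5, the keratin of basal cells, fell by 7.10, and Cdh1, which joins epithelial cells, was under the controls on all PD-SCC arrays. In a bulk sample a smaller share of cells of a type and less RNA per cell cannot be told apart. Of 12 fibroblast markers (median 0.19) 0 rose and 1 fell (Thy1, or 8.33%, where 4.81% of all genes fell). Mean levels were 4.96 to 8.11 in WD-SCC and 6.28 to 6.81 in PD-SCC, and Lum was under the controls on all PD-SCC arrays. Prrx1, Twist2 and Pdgfra of that list stood higher in PD-SCC in all 3 lineages, without overlap between the stages, and did not pass the threshold in limma. Prrx1 differed by 2.26 ± 0.60 (SE; adjusted p = 0.0656) and Twist2 by 2.04 ± 0.54 (adjusted p = 0.0644). Pdgfra was under the controls on all WD-SCC arrays and above them on all PD-SCC arrays (fitted difference 0.66 ± 0.19, adjusted p = 0.0813). Beside Thy1, the fitted differences of Dpt, Lum, Fbln1 and Col1a1 were below 0 (-2.72, -1.43, -0.275 and -0.15), and none of these passed the threshold.

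Of 10 endothelial markers 2 fell (20%, median -1.21), where 4.81% of all genes fell. Their mean levels were 3.92 to 6.31 in WD-SCC and 3.61 to 4.01 in PD-SCC. Tek and Vwf were under the controls on all 8 arrays. Others were above the controls on all 4 WD-SCC arrays, among them Cdh5 (4.31 to 9.80), Tie1 (5.40 to 8.30) and Pecam1 (4.34 to 7.54). Of 12 haematopoietic markers (median -0.76) 2 fell (16.7%, where 4.81% of all genes fell). Their mean levels were 4.59 to 5.45 in WD-SCC and 3.78 to 4.27 in PD-SCC, with Ptprc and Itgam under the controls on all arrays. Cd68 and Csf1r were above the controls on all 8 arrays, at 7.48 to 7.91 and 5.35 to 6.57 in WD-SCC. No melanocyte or Schwann cell marker passed the threshold (6 measured, median -0.23). Of 6 muscle and adipocyte markers 2 fell (33.3%, median -0.25), where 4.81% of all genes fell. In no list did a marker rise. Hoxb2, Hoxb3 and Hoxb4 thus rose where the keratinocyte, endothelial and haematopoietic lists had medians below 0 and the fibroblast list one of 0.19, and the part of the cell makeup in the Hox values was not tested.

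Other genes of the Hox system were read from 5 lists, of which 86 genes were measured. Of these 8 rose (9.3%, where 7.78% of all genes did) and 3 fell (3.49%, where 4.81% of all genes did). Hox proteins bind DNA together with the TALE homeodomain proteins of the Pbx and Meis families, and none of the 8 measured genes of that list passed the threshold (median 0.07). Meis2 read 3.79, 4.12, 4.08 and 3.99 in WD-SCC and 5.59, 5.95, 4.60 and 4.27 in PD-SCC, without overlap. Its difference of 1.11 ± 0.32 (SE) had an adjusted p of 0.0778 in limma, and it was largest in OT7 (1.81). Meis2 was above the controls on 1 of 4 WD-SCC arrays and 4 of 4 PD-SCC arrays, so its fitted difference is not a measured fold. Of 17 measured activators and retinoid receptors, Ash2l, a subunit of the complexes that methylate histone H3 at active genes, rose by 1.30 ± 0.24 (SE; adjusted p = 0.0251), and none fell (median 0.47). The caudal gene Cdx1, its relative Cdx4 and Mllt3 were under the controls on all arrays.

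The Polycomb list, which counts Gmnn, had 21 measured genes. Of these 3 rose (14.3%, where 7.78% of all genes did) and 1 fell (4.76%, where 4.81% of all genes did), with a median of 0.45. Ezh2, the methyltransferase that places the silencing mark on histone H3, read 4.57, 3.53, 4.29 and 3.45 in WD-SCC and 6.82, 7.15, 5.62 and 4.94 in PD-SCC. The fitted rise was 2.17 ± 0.40 (SE), with an adjusted p of 0.0252 in limma and no overlap between the stages. Ezh2 was above the controls on 2 of 4 WD-SCC arrays and 4 of 4 PD-SCC arrays, so this is not a measured fold. Gmnn, a replication licensing inhibitor that also binds Hox proteins, had a fitted rise of 1.66 ± 0.19 (SE; adjusted p = 0.00748). It was above the controls on 3 of 4 WD-SCC arrays and 4 of 4 PD-SCC arrays, so this too is not a measured fold. Kdm2b, which brings a Polycomb complex to CpG islands, rose by 0.74 ± 0.16 (SE; adjusted p = 0.0405). Jarid2, a partner of the Ezh2 complex, fell by 1.77 and had an adjusted p of 0.037. The median of all genes was -0.06, and the lists were not compared with other genes by a test.

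Of 19 measured genes that flank the clusters 3 rose and 1 fell (median 0.13). These are 15.8% and 5.26%, where 7.78% of all genes rose and 4.81% fell. Evx2, the homeobox gene next to Hoxd13, read 4.76, 4.65, 4.17 and 4.35 in WD-SCC and 3.74, 3.88, 3.65 and 3.80 in PD-SCC, and fell by 0.72 with an adjusted p of 0.0175. It lay close to the controls, above them on 3 of 4 arrays of each stage. Cbx5 and Cbx1, heterochromatin proteins beside HoxC and HoxB, rose by 2.47 ± 0.50 and 1.36 ± 0.22 (SE; adjusted p = 0.0333 and 0.0178), and Copz1, a coat protein of vesicles, rose by 1.13 ± 0.27 (adjusted p = 0.0494). Of 21 other homeobox genes of skin and the posterior body 1 rose and 1 fell (median -0.11), or 4.76% each. Pitx1, a factor of hindlimb identity, read 7.71, 9.41, 9.68 and 9.74 in WD-SCC and 3.91, 4.09, 8.39 and 5.38 in PD-SCC. It fell by 3.70 over the lineages (adjusted p = 0.026), and the OT14 PD-SCC array, which had the high Hoxa9 and Hoxa3 values, was above OT7 WD-SCC array 1. Dlx2 was under the controls on all WD-SCC arrays (3.53 to 3.95) and above them on all PD-SCC arrays (4.04 to 4.80), so its change is a bound, at least 1.20-fold higher in PD-SCC (adjusted p = 0.0362 in limma). With OT7 PD-SCC array 1 left out, 1 of the 86 genes was called higher and 0 lower.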

How the data were processed

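RNA of 8 sorted tumour cell samples was labelled and hybridised to Affymetrix arrays, per the labels' protocols. The authors deposited 1 log2 value per probe set and array. Per the submitters' processing notes, affy and RMA were used: RMA subtracts a background estimate, equalises the arrays' distributions and combines the probes of a set. Their versions, the probe set definition and the set of arrays normalised jointly are not given in the sources read.

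Of 45141 probe sets, 28898 had 1 gene symbol in the platform annotation, 551 several and 15588 none, and the other 104 were controls. Symbols were updated by Entrez number (99.1% of genes matched in RefSeq). Where a gene had several probe sets, the one with the highest 8-array mean stood for it. Tests used limma 3.58.1 in R 4.3.3 (two-sided moderated tests with a fixed lineage term and 4 residual degrees of freedom). P-values were adjusted over 17097 genes by Benjamini-Hochberg, with a threshold of 0.05. Second probe sets of a gene were read from a separate limma fit over the 28898 probe sets with 1 gene symbol, adjusted over those. The lineage by stage fit has 2 residual degrees of freedom, all from OT7. Lineage pairs the stages through the series design; across genes, deviations from the stage means of the WD-SCC and PD-SCC arrays correlated at -0.04 in OT7, 0.02 in OT14 and 0.06 in OT15. The fits were tested on simulated data. Array measures used exact permutation tests over all arrays; the one within lineages was added after seeing the data.

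The members, gene lists and tests were chosen with earlier results of these data known. Described in full were members past a threshold and those above the controls on all arrays of a stage or lineage; other members are given for completeness, some chosen after their values were seen. From the other lists, genes past the threshold are named; Meis2, 3 fibroblast markers and genes under the controls were added after their values were seen. Alternatives left out the lineage block or made it random, averaged the OT7 arrays, chose probe sets otherwise, rescaled the arrays (cyclic loess, or the 75th percentile), kept genes above the controls on 3 or more arrays, used a trended and robust prior, or dropped each array or lineage.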

Additional observations from a re-analysis of the deposited data

Results flagged for a closer look

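In each stage, the highest and lowest of the 4 arrays were compared with the nearest of the others for each Hox gene (Dixon's ratio at its 95% critical value). Of 68 groups of 4 checked, 7 held an array that stood apart. A rate of about 1 in 20 holds for 4 arrays that differ by random error alone, and each stage holds 3 lineages. The share over all genes is not given here, so the count is not read as a result about the Hox genes. The OT14 PD-SCC array was that array for 4 genes: Hoxa2 read 3.67 there against 3.08 for the next array, Hoxa5 4.88 against 3.63, Hoxa9 7.83 against 3.88, and Hoxd9 5.46 against 3.66. Hoxa2 passed the control of that array by 0.06 only. The OT15 WD-SCC array was the highest for Hoxa7, at 4.91 against 4.30, and for Hoxb3, at 3.84 against 3.63, where no WD-SCC array was above the controls. OT7 WD-SCC array 1 was the lowest for Hoxb8, at 4.17 against 6.00.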

How the results depend on the processing

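The count of Hox genes higher in PD-SCC (3 as reported) was 0 with the OT7 arrays of a stage averaged, 1 after scaling to the 75th percentile, 0 without lineage OT7 and 1 without OT14 or OT15; leaving out 1 array gave 0 to 2. The count of lower genes (0 as reported) was 2 after scaling to the 75th percentile (Hoxd9 and Hoxd13), 1 with the filter on dim genes (Hoxd9) and 2 with a trended and robust prior (Hoxd9 and Hoxd10). The count above the controls on all 8 arrays (6) was 1 with 1 log2 unit added to the highest control and 2 against all 27 bacterial controls, an alternative chosen after seeing the data; on at least 1 array (19) it was 10 with 1 unit added. Of the genes of the 5 lists, 8 were higher and 3 lower. With the OT7 arrays averaged these were 1 and 1, after cyclic loess 5 and 5, and without lineage OT7, OT14 and OT15 1, 5 and 5 were higher and 0, 3 and 1 lower; leaving out 1 array gave 1 to 5 higher and 0 to 3 lower. The lower count was also 5 without the lineage block, 6 with lineage as a random block, 6 with averaged probe sets per gene and 8 after scaling to the 75th percentile.

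Without the lineage block, the only pairing tried, Hoxb2, Hoxb3 and Hoxb4 were called as before (adjusted p = 0.0345, 0.0101 and 0.0442 in limma) and 2123 genes were called in all, against 2154. Over 20 alternatives the difference was 0.43 to 0.75 for Hoxb2 (past the threshold in 8), 0.35 to 0.70 for Hoxb3 (in 10) and 0.99 to 1.44 for Hoxb4 (in 13), with adjusted p up to 0.131, 0.265 and 0.179. Of the 31 members not called, 12 changed sign under at least 1 alternative. The filter on dim genes removed Hoxd10 and Hoxd13, so it gave no value for them. Leaving out an OT14 or OT15 array equals leaving out that lineage. The OT15 WD-SCC array, whose Cd34 was under its control, and the 4 arrays per stage limit the precision, as do the 15 members that no array showed above the controls. No Hox gene was called between lineages, or in the stage by lineage test, under any alternative run for them.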
